A study of Homo sapiens with 21 samples.

Results

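The data compared here are the responses of BT-549 mammospheres to silencing of MUC1 and to silencing of MYC, taken as a difference of differences. BT-549 is an established triple-negative breast cancer (TNBC) line, and mammospheres are spheres of such cells grown without attachment and passaged serially. Of the 21 RNA-seq libraries in the series, the 12 libraries of the doxycycline-inducible shRNA lines were used, 3 in each of 4 groups. The BT-549/tet-MUC1shRNA mammospheres (the MUC1 line), at passage 6, received 0.1% DMSO as vehicle or 500 ng/ml doxycycline (DOX). The BT-549/tet-MYCshRNA mammospheres (the MYC line), at passage 8, received the same vehicle or the same DOX concentration. All 4 groups carry a tet-shRNA vector with puromycin selection, are labelled wild type and were grown in 3D, and each target was silenced with 1 shRNA. DOX switches on the shRNA, so it was present in every silenced library of both lines, and no DOX-treated library without a targeting shRNA was analysed here. An effect of DOX itself and an effect of silencing therefore cannot be told apart in the changes that both lines share, and the target, the shRNA, the cell line derivative and the passage cannot be told apart in the changes that differ.

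The MUC1 gene encodes a transmembrane mucin whose C-terminal subunit, MUC1-C, signals from the membrane and also enters the nucleus, where it acts with transcription factors. MYC encodes a transcription factor that binds E-box sequences with its partner MAX and is known for driving ribosome synthesis, nucleotide synthesis and cell cycle entry. The study examined MUC1-C and MYC as regulators of glycolysis and mitochondrial genes in mammospheres, and the 12 libraries allow the 2 silencing responses to be set against each other gene by gene. Values below are log2 fold changes of DOX over vehicle within a line, and the difference is the change in the MUC1 line minus the change in the MYC line. Levels are in CPM, reads of a gene relative to the total of its library, scaled by edgeR's TMM factors and not divided by gene length.

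The shallowest of the 12 libraries held 39652897 counts and the deepest 99751717, 2.52 times as many. The biological coefficient of variation between libraries of a group was 0.103, pooled over the 4 groups. Pairs of DOX-treated MYC-line libraries had a chi-square per degree of freedom of 18.6 to 49.7, against 4.3 to 20.1 in the other groups. The fit did not let the spread of a gene differ between groups. The first principal components held 38%, 23.2% and 17.2% of the variance. Among markers of mesenchymal TNBC cells, VIM, ZEB1, CDH2, FN1 and AXL were counted in every library. They summed to 11700 to 12800 CPM with vehicle and 8570 to 8900 with DOX in the MUC1 line, and to 8060 to 8290 and then 13800 to 15500 in the MYC line. FN1 made up most of each sum, with means of 10500 and then 7220 CPM in the MUC1 line and 5220 and then 12300 in the MYC line. Other members went against the sum. VIM (1110 to 1230 CPM) and CDH2 (12 to 74.8) rose in the MUC1 line, and VIM (2480 to 2180) and AXL (189 to 127) fell in the MYC line. PGR was at most 0.0656 CPM. ERBB2 was between 18.5 and 41.6 CPM and ESR1 between 0.197 and 1.47 CPM. The epithelial markers EPCAM, CDH1, KRT8, KRT18 and KRT19 summed to 2.41 to 2.74 CPM in the DOX-treated MUC1 line and to at most 0.148 CPM in the other 9 libraries, with EPCAM and KRT19 at or near 0 throughout. Leukocyte markers summed to at most 1.38 CPM. Of the endothelial markers, CDH5 and VWF were at most 0.106 and 0.14 CPM, while PECAM1 was between 2.61 and 9.86 CPM. Their sum was 4.07 to 4.29 CPM with vehicle and 2.75 to 3.44 with DOX in the MUC1 line, and 6.44 to 7.25 and then 8.57 to 9.86 in the MYC line. The part of these marker shifts in the results was not tested. The study's methods say that cells were cultured in triplicate, and neither they nor the labels say whether the 3 cultures of a group were set up independently, so p-values may measure technical spread. In bulk libraries such as these, fewer cells expressing a gene and less RNA of it per cell cannot be told apart.

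Each targeted gene fell in its own line. MUC1 (ENSG00000185499.16, chromosome 1 of GRCh38 from 155185824 to 155192916) was at 103, 84.3 and 87.5 CPM with vehicle and at 19.9, 21.4 and 23.6 with DOX in the MUC1 line. In the MYC line it was at 67.3, 67.7 and 73.7 CPM with vehicle and at 137, 192 and 164 with DOX. MUC1 thus fell on MUC1 silencing by 2.08 on the log2 scale (standard error 0.11) and rose on MYC silencing by 1.24 (standard error 0.11), with no overlap between vehicle and DOX in either line. The difference was -3.33 ± 0.15 (standard error, edgeR's quasi-likelihood test, adjusted p = 9.96e-11). MYC (ENSG00000136997.21, chromosome 8 from 127735434 to 127742951) was at 445, 422 and 388 CPM with vehicle and at 239.9, 276 and 292 with DOX in the MYC line. The MUC1 line had 245, 258 and 241 CPM of MYC with vehicle and 295, 296 and 276 with DOX. MYC mRNA fell by 0.63 on MYC silencing and rose by 0.22 on MUC1 silencing (adjusted p = 0.0112 from edgeR's test). The depth of silencing thus differed between the 2 targets at the mRNA level. These libraries do not measure protein, and the study reports from immunoblots that targeting MUC1-C lowered MYC. The vehicle level of MYC mRNA was lower in the MUC1 line than in any vehicle library of the MYC line.

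**Figure D1:**
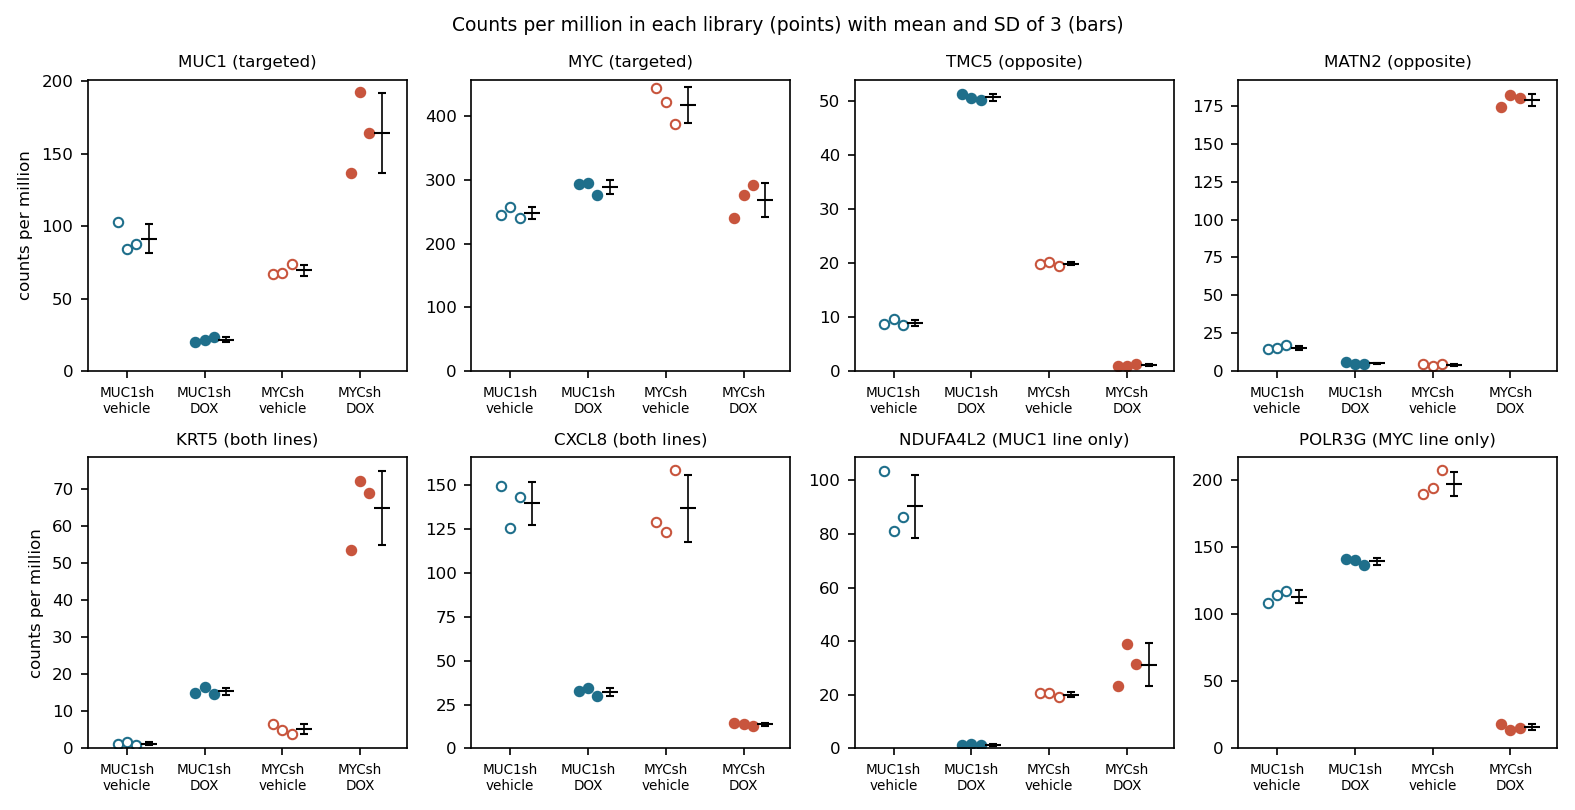
CPM (linear axis from 0) of 8 genes in each of the 12 libraries, with open points for vehicle, filled points for DOX, blue for the MUC1 line and red for the MYC line, and bars for the mean and SD of 3 libraries. MUC1 and MYC each fell in their own line, MUC1 rose on MYC silencing, TMC5 and MATN2 moved in opposite ways, KRT5 and CXCL8 the same way in both lines, NDUFA4L2 mainly in the MUC1 line and POLR3G mainly in the MYC line.

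Of 42339 genes in the table, 21585 were tested in 1 fit over the 12 libraries, and a gene was called at an adjusted p below 0.1 with an absolute log2 value above 1.5. The study states this fold threshold both on the log2 scale and as a linear fold change, and the stricter log2 reading was used. That reading called 1695 genes on MUC1 silencing in a fit of the 6 libraries of that line, near the study's own count. The linear reading called 6298 in the fit over 12 libraries. Taken as a linear fold change, the same threshold called 8466 differences. The difference was called for 3474 genes, of which 1632 were higher (7.56% of tested genes) and 1842 lower (8.53%) after MUC1 than after MYC silencing. MUC1 silencing alone raised 1313 genes (6.08%) and lowered 698 (3.23%), and MYC silencing raised 1571 (7.28%) and lowered 877 (4.06%). The adjusted p alone was passed by 25.9% of genes for a higher and 26.8% for a lower difference, by 24.1% for a rise and 27.3% for a fall on MUC1 silencing, and by 29.3% for a rise and 28.7% for a fall on MYC silencing. Scaling by library size alone shifted the median difference over all genes by 0.20 on the log2 scale and the median MUC1 change by 0.19, and 59.4% of called differences were then higher, against 47.0% with TMM factors.

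The 2 responses overlapped in part. Called in both lines, in either direction, were 584 genes. They made up 29.0% of the genes called on MUC1 silencing, while 11.3% of all tested genes were called on MYC silencing, and 23.9% of those called on MYC silencing, while 9.32% of all were called on MUC1 silencing. Spearman's rho between the 2 changes was 0.10 over the tested genes, which share their libraries and are not independent replicates, and 53.6% of genes had the same sign. Opposite changes, meaning a called difference with both single-line changes past the adjusted p and of opposite sign, were found for 1469 genes. Of these, 561 rose on MUC1 silencing and fell on MYC silencing (2.6% of tested genes), and 908 fell on MUC1 silencing and rose on MYC silencing (4.21%). With library size alone, 56.2% of the opposite genes were of the first kind, against 38.2% here. Both single-line changes also passed the log2 threshold for 215 of them. Changes called in the same direction in both lines were 300 rises (1.39%) and 69 falls (0.32%).

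A change in 1 line only was defined by the interval rather than by a missed threshold. The gene had to be called in that line and in the difference, with the 95% interval of its change in the other line within -1 and 1. The MUC1 line alone raised 112 genes (0.519%) and lowered 166 (0.769%), while under scaling by library size alone 58.1% of such genes rose against 40.3% here. The MYC line alone raised 297 genes (1.38%) and lowered 158 (0.732%). Of the 278 genes of the MUC1 line, 81 also counted as opposite, since a small change in the MYC line passed the adjusted p, and the same held for 132 of the 455 genes of the MYC line. A further 1485 genes had a called difference but fell in none of the opposite or 1-line groups.

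**Figure D2:**
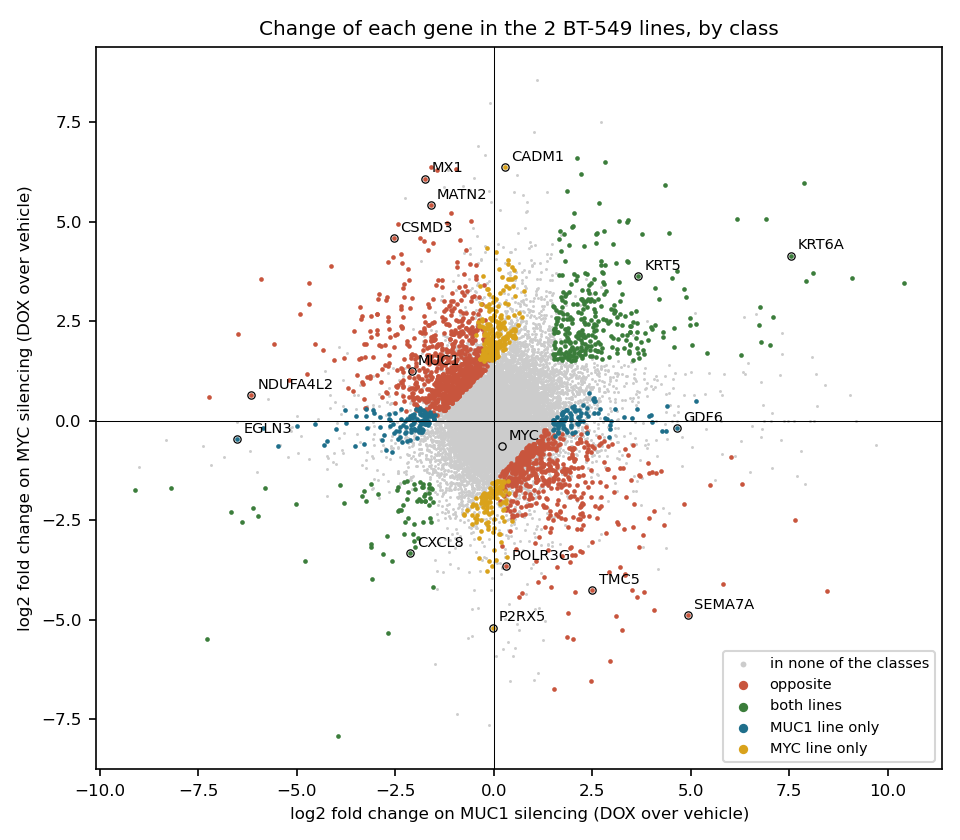
Log2 fold change (DOX over vehicle) on MUC1 silencing (horizontal) and on MYC silencing (vertical) for the 21585 genes tested, 1 point per gene, colored by class, with genes that meet 2 classes drawn as opposite and a circle around each named gene. The 1469 opposite genes fill the upper left and lower right, and the 369 genes changed alike in both lines fill the corners of the other diagonal.

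For most opposite genes the vehicle level was higher in the line where the gene fell. Among the 908 genes that fell on MUC1 and rose on MYC silencing, 732 (80.6%) had all 3 vehicle libraries of the MUC1 line above all 3 of the MYC line, against 31.8% of all tested genes. Among the 561 genes with the reverse pattern, 381 (67.9%) were higher in the vehicle-treated MYC line, against 30.3% of all genes. For the genes raised in both lines 19.3% were higher in the vehicle-treated MUC1 line and 18.3% in the MYC line, and for those lowered in both lines 47.8% and 15.9%. The vehicle-treated MUC1 line was higher for 73.5% of the genes lowered in the MUC1 line alone and 75.4% of those raised in the MYC line alone. The vehicle-treated MYC line was higher for 75% of the genes raised in the MUC1 line alone and 53.8% of those lowered in the MYC line alone. The same vehicle libraries enter the changes themselves, and the part that the starting level had in the difference was not tested.

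The genes named for each class and direction were ranked by the size of the difference, or by the smaller change for classes in both lines, among protein-coding genes with a mean normalized count of at least 100 and no overlap of vehicle and DOX libraries where the class needs a change. Leading the 276 such genes that rose on MUC1 and fell on MYC silencing was SEMA7A (ENSG00000138623.10, chromosome 15 from 74409289 to 74433958), which encodes a membrane-anchored semaphorin. SEMA7A was at 0.503, 0.191 and 0.358 CPM with vehicle and at 10.4, 9.94 and 11.4 with DOX in the MUC1 line. In the MYC line it was at 10.1, 10.1 and 8.08 CPM with vehicle and at 0.397, 0.222 and 0.341 with DOX. The order of the lines was thus reversed by silencing, and the changes were 4.92 and -4.88, which differed by 9.81 ± 0.36 (edgeR, adjusted p = 4.75e-15). TMC5, a transmembrane channel-like gene on chromosome 16 from 19410496 to 19499113, was at 8.71, 9.62 and 8.48 CPM with vehicle and at 51.4, 50.5 and 50.1 with DOX in the MUC1 line. In the MYC line TMC5 was at 19.9, 20.1 and 19.5 CPM with vehicle and at 0.992, 0.886 and 1.24 with DOX. All 4 groups of TMC5 stood apart, with changes of 2.50 and -4.25 and a difference of 6.75 ± 0.15. MECOM, a zinc finger transcription factor gene on chromosome 3 from 169083499 to 169663775, went from 1.88, 1.77 and 2.03 to 17.9, 19.5 and 18.6 CPM in the MUC1 line and from 21.8, 20.9 and 22.8 to 3.21, 2.98 and 3.78 CPM in the MYC line. MMP3, the metalloproteinase stromelysin 1, went from 0.0529, 0.143 and 0.358 to 14.2, 11 and 13.4 CPM in the MUC1 line and from 1.06, 1.09 and 1.25 to 0.635, 0.818 and 0.372 CPM in the MYC line. The differences were 6.01 ± 0.16 for MECOM and 6.91 ± 0.50 for MMP3, of which the fall on MYC silencing was the smaller part for MMP3 (-0.90).

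Of the 644 ranked genes with the reverse pattern, the 4 with the largest difference were MX1, PNCK, CSMD3 and MATN2. MATN2 (ENSG00000132561.14, chromosome 8 from 97868840 to 98036724), which encodes the matrix protein matrilin 2, was at 14.4, 15.0 and 17.0 CPM with vehicle and 5.66, 4.91 and 4.75 with DOX in the MUC1 line. In the MYC line MATN2 was at 4.49, 3.58 and 4.67 CPM with vehicle and 175, 183 and 180.2 with DOX, so that the silenced MYC line stood far above every other library. The changes were -1.60 and 5.41 and the difference -7.01 ± 0.13 (edgeR, adjusted p = 7.57e-18). MX1, an interferon-induced antiviral GTPase gene on chromosome 21 from 41420020 to 41470071, was at 0.900, 0.644 and 0.735 CPM with vehicle and 0.250, 0.154 and 0.299 with DOX in the MUC1 line, and at 0.189, 0.219 and 0.295 CPM with vehicle and 16.6, 19.7 and 11 with DOX in the MYC line. CSMD3 went from 4.87, 2.86 and 3.42 to 0.678, 0.660 and 0.551 CPM in the MUC1 line and from 0.297, 0.437 and 0.295 to 9.19, 9.03 and 7.21 CPM in the MYC line. In PNCK, a calmodulin-dependent kinase gene on chromosome X, nearly all of the difference of -7.81 ± 0.58 lay in the MUC1 line, where it went from 15.1, 12.2 and 15.3 to 0, 0.126 and 0.161 CPM, while in the MYC line it went from 4.14, 4.33 and 4.77 to 5.04, 8.72 and 6.25 CPM. Its rise in the MYC line (0.60, adjusted p = 0.0282 from edgeR's test), which makes it opposite, did not pass without the second DOX library of that line (0.38, adjusted p = 0.128).

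Genes that rose in both lines included 2 type II keratins of basal epithelium on chromosome 12. KRT5 (ENSG00000186081.12, from 52514575 to 52520530) was at 1.19, 1.65 and 0.834 CPM with vehicle and 14.9, 16.6 and 14.7 with DOX in the MUC1 line, and at 6.70, 5.05 and 3.87 CPM with vehicle and 53.7, 72.3 and 69.1 with DOX in the MYC line. The changes were 3.67 and 3.64, and the 95% interval of the difference ran from -0.65 to 0.71 (adjusted p = 0.945 from edgeR's test). KRT6A (from 52487176 to 52493257) was at most 0.121 CPM in every vehicle library and at 12.2, 10.7 and 8.43 CPM with DOX in the MUC1 line and 1.19, 1.48 and 1.52 CPM in the MYC line. Its rise was larger in the MUC1 line by 3.39 ± 0.77. MUCL1, a small mucin-like gene on the same chromosome, went from 0.371, 0.191 and 0.318 to 74.7, 72.3 and 67.4 CPM in the MUC1 line and from 0.0270, 0.0795 and 0.0656 to 0.397, 0.375 and 1.24 CPM in the MYC line. MGP, which encodes a matrix protein that inhibits calcification, rose by 4.34 and 5.93 from vehicle levels of at most 0.189 CPM. The difference for MGP (-1.58) passed with an adjusted p of 0.0874 in edgeR's test and was lost in 7 of the 12 fits that each left out 1 library. Those fits gave differences from -2.14 to -0.54, the last without the first vehicle library of the MUC1 line.

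Of the 69 genes lowered in both lines, CXCL8 (ENSG00000169429.11, chromosome 4 from 73740519 to 73743716), the chemokine interleukin 8, was among those that led. CXCL8 was at 149.6, 126 and 144 CPM with vehicle and 32.4, 34.5 and 29.8 with DOX in the MUC1 line, and at 129, 123 and 159 CPM with vehicle and 14.6, 13.7 and 12.6 with DOX in the MYC line. The vehicle levels of the lines overlapped, and the falls of -2.11 and -3.33 differed by 1.22 ± 0.13 (adjusted p = 4.4e-07 from edgeR's test). FGFR4, a fibroblast growth factor receptor, fell by 2.25 and by 2.53 on the log2 scale, with a 95% interval of the difference from -0.42 to 0.98. DUSP9, a phosphatase of ERK, went from 9.27, 7.97 and 6.99 to 0.393, 0.646 and 0.689 CPM in the MUC1 line and from 1.05, 0.954 and 1.34 to 0.238, 0.273 and 0.279 CPM in the MYC line, a difference of -1.75 ± 0.35.

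Of the 72 ranked genes raised in the MUC1 line alone, GDF6, TSPAN1, ITGA2 and FAM83B had the largest differences. TSPAN1 (ENSG00000117472.10, chromosome 1 from 46175073 to 46185962), a tetraspanin of epithelial cells, was at 0.953, 0.811 and 0.516 CPM with vehicle and 15.5, 16.1 and 15.1 with DOX in the MUC1 line. In the MYC line TSPAN1 was at 1.93, 2.12 and 1.10 CPM with vehicle and 1.35, 1.67 and 1.35 with DOX, so that the groups overlapped, and the interval of that change ran from -0.70 to 0.19. Without the third vehicle library it was -0.48 (adjusted p = 0.0374 from edgeR's test). ITGA2, the collagen-binding integrin alpha 2 subunit on chromosome 5 from 52989340 to 53094779, went from 0.794, 0.382 and 0.795 to 12.8, 12.6 and 13.1 CPM in the MUC1 line, with a change of -0.26 ± 0.23 in the MYC line. GDF6, a ligand of the BMP family, rose by 4.64 ± 0.27 in the MUC1 line, beside -0.19 ± 0.24 in the MYC line. FAM83B went from 5.19, 5.73 and 4.71 to 52.5, 51.7 and 51.7 CPM in the MUC1 line, and its fall of -0.72 in the MYC line lay within the bound while passing the adjusted p, so that it also counted as opposite. An unnamed transcript on the same strand covers 31.0% of the exon bases of FAM83B.

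Of the 127 ranked genes lowered in the MUC1 line alone, NDUFA4L2, EGLN3, PPFIA4 and SLC1A6 had the largest differences. NDUFA4L2 (ENSG00000185633.10, chromosome 12 from 57234903 to 57240715), a mitochondrial protein gene induced by hypoxia, was at 104, 81.0 and 86.5 CPM with vehicle and 1.12, 1.5 and 1.12 with DOX in the MUC1 line, and at 20.5, 20.6 and 19.1 CPM with vehicle and 23.1, 39.1 and 31.6 with DOX in the MYC line. It fell by 6.15 in the one and rose by 0.64 in the other, the rise lying within the bound of 1 but passing the adjusted p (0.00317 from edgeR's test), so that it also counted as opposite. EGLN3 (ENSG00000129521.15, chromosome 14 from 33924227 to 34462774), a prolyl hydroxylase that marks HIF alpha subunits for degradation, was at 24.4, 14.5 and 18.6 CPM with vehicle and 0.0893, 0.393 and 0.0689 with DOX in the MUC1 line, and at 12.7, 12.4 and 14.1 CPM with vehicle and 7.98, 11.2 and 9.15 with DOX in the MYC line. EGLN3 fell by 6.52 on MUC1 silencing and its change on MYC silencing was -0.47 ± 0.23 (adjusted p = 0.106 from edgeR's test), which passed under several alternatives, with the lowest adjusted p at 0.00131 when genes were kept from 1 count on. PPFIA4, a liprin, and SLC1A6, a glutamate transporter, fell by 5.48 and by 4.98 on MUC1 silencing, beside -0.64 and -0.14 on MYC silencing, of which the -0.64 of PPFIA4 passed the adjusted p.

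The largest differences belonged to CADM1, COL3A1, PLSCR4 and SPON2 among the 225 ranked genes raised in the MYC line alone, and to P2RX5, PDE4A, POLR3G and NRARP among the 98 lowered there. COL3A1 (ENSG00000168542.16, chromosome 2 from 188974373 to 189012746), the type III collagen chain, was at 11.3, 11 and 10.4 CPM with vehicle and 215, 214 and 209.9 with DOX in the MYC line, and at 13.2, 11.4 and 13.9 CPM with vehicle and 6.39, 9.25 and 7.94 with DOX in the MUC1 line, where it fell by 0.71 and so also counted as opposite. CADM1, a cell adhesion molecule gene on chromosome 11 from 115169218 to 115504957, went from 0.459, 0.378 and 0.394 to 36.1, 31.1 and 34.1 CPM in the MYC line, and its change in the MUC1 line was 0.29 with an interval from 0.01 to 0.56 (adjusted p = 0.08 from edgeR's test, which did not hold in 6 of the fits without 1 library). PLSCR4, a phospholipid scramblase, rose by 4.33 and SPON2, a spondin, by 3.92 on MYC silencing. SPON2 also counted as opposite, with -0.45 in the MUC1 line (adjusted p = 0.0614 from edgeR's test), which became -0.26 (adjusted p = 0.206) with library size alone. Nor did it pass in edgeR's test without any 1 of the DOX libraries of that line (adjusted p from 0.118 to 0.126). POLR3G (ENSG00000113356.13, chromosome 5 from 90471748 to 90514557), a subunit of RNA polymerase III, was at 189, 194 and 207 CPM with vehicle and 18.3, 13.8 and 15.1 with DOX in the MYC line, against 108, 114 and 117 and then 141, 140.0 and 136 CPM in the MUC1 line. POLR3G fell by 3.65 on MYC silencing and rose by 0.30 on MUC1 silencing, which made it opposite as well, with a difference of 3.95 ± 0.11 (adjusted p = 7.04e-16 from edgeR's test). PDE4A, a cyclic AMP phosphodiesterase, fell by 4.43 and NRARP, a feedback inhibitor of NOTCH signalling, by 3.22 in the MYC line, and both rose in the MUC1 line, by 0.65 and 0.57, so that they also counted as opposite. P2RX5, an ATP-gated channel that shares 43.2% of its exon bases with a read-through transcript, fell by 5.19 in the MYC line.

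Gene lists drawn from textbook knowledge were described next by counts and medians, beside those over all genes tested, for which the median change was 0.02 on MUC1 silencing and -0.00257 on MYC silencing and the median difference 0.05. A member counted as risen or fallen at an adjusted p below 0.1, with no fold threshold. By that rule 24.1% of all tested genes rose and 27.3% fell on MUC1 silencing, and 29.3% rose and 28.7% fell on MYC silencing. The difference was higher for 25.9% of them and lower for 26.8%.

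**Figure D3:**
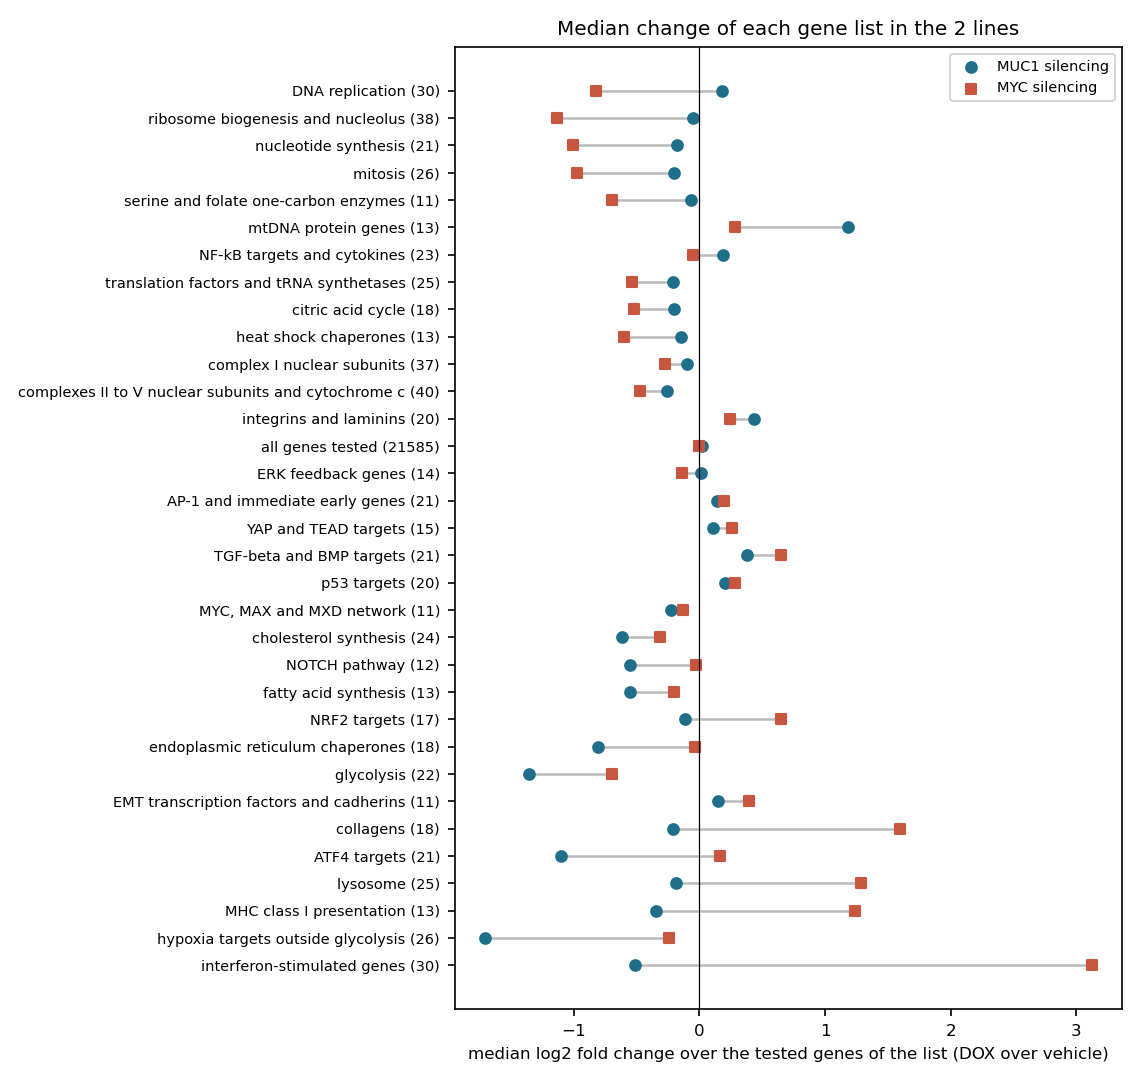
Median log2 fold change (DOX over vehicle) over the tested genes of each list on MUC1 silencing (circles) and MYC silencing (squares), ordered by the median difference, with the number of tested genes in parentheses. DNA replication and ribosome biogenesis lie at the top with MYC medians of -0.82 and -1.13, and the hypoxia and interferon lists at the bottom with median differences of -1.75 and -3.25.

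Glycolysis, the breakdown of glucose to pyruvate and lactate, fell in both lines but further in the MUC1 line. All 22 glycolysis genes tested fell on MUC1 silencing (19 with library size alone), and 14 fell and 2 rose on MYC silencing, with medians of -1.36 and -0.69. The difference was lower for 15 and higher for 2, or for 15 and 5 with library size alone. SLC2A1 (GLUT1), the main glucose transporter, was at 179, 127 and 144 CPM with vehicle and 43.0, 44.7 and 38 with DOX in the MUC1 line, and at 138, 131 and 126 CPM with vehicle and 50.9, 75.4 and 66.4 with DOX in the MYC line. HK2, which phosphorylates glucose in the first step, was at 388, 289 and 308 CPM with vehicle and 75.3, 81.4 and 69.7 with DOX in the MUC1 line, and at 268, 266 and 283 CPM with vehicle and 89.8, 106 and 100.3 with DOX in the MYC line. For both genes every DOX library lay below every vehicle library. SLC2A1 fell by 1.84 and by 1.04, a difference of -0.80 ± 0.20, and HK2 by 2.12 and by 1.46, a difference of -0.66 ± 0.13 (adjusted p = 0.00578 and 0.000722 from edgeR's test).

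Single members of the glycolysis list differed in direction. PFKL, the liver-type phosphofructokinase, was at 46.8, 39.8 and 40.7 CPM with vehicle and 20.9, 21.2 and 18.8 with DOX in the MUC1 line, and at 54.4, 52.9 and 46.9 CPM with vehicle and 71.6, 108 and 97.5 with DOX in the MYC line. PFKL fell by 1.06 and rose by 0.84, and ENO2, an enolase, fell by 3.27 and rose by 0.32, making these the 2 opposite members of the 22, beside 6.81% of all tested genes. PFKM, the muscle-type phosphofructokinase, in turn fell further on MYC silencing (-0.75) than on MUC1 silencing (-0.35), a difference of 0.40 ± 0.09. ALDOA, an aldolase, fell by 1.97 in the MUC1 line and changed by 0.29 ± 0.21 in the MYC line (edgeR, adjusted p = 0.273), or by 0.54 (adjusted p = 0.000229) without the first DOX library of that line, with 42.8% of its exon bases shared with another annotated transcript. GAPDH was at 8602, 7126 and 6834 CPM with vehicle and 1422, 1589 and 1310.5 with DOX in the MUC1 line, and changed by -0.16 ± 0.11 in the MYC line, with 65 annotated pseudogenes whose reads could be shared. ENO1 fell by 0.29, or by 0.10 without passing under library size alone, and by 0.33 on MYC silencing, with a 95% interval of the difference from -0.19 to 0.26. SLC2A3 (GLUT3), a high-affinity glucose transporter, had the lowest difference, -4.11 ± 0.32, and went from 113, 86.7 and 101 to 1.02, 2.71 and 1.52 CPM in the MUC1 line and from 28.3, 29.2 and 33.4 to 9.39, 10.3 and 8.50 CPM in the MYC line.

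Targets of the hypoxia-inducible factors outside glycolysis fell in the MUC1 line without exception. All 26 fell on MUC1 silencing (25 with library size alone), with a median of -1.71, while 13 fell and 5 rose on MYC silencing, with a median of -0.24. The difference was lower for 24 of 26. CA9 (ENSG00000107159.13, chromosome 9 from 35673928 to 35681159), a carbonic anhydrase that exports acid and is a common marker of hypoxia, was at 50.8, 34.4 and 38.3 CPM with vehicle and 0.0357, 0.281 and 0.0459 with DOX in the MUC1 line. In the MYC line CA9 was at 22.5, 21.2 and 23.0 CPM with vehicle and 5.83, 7.84 and 6.96 with DOX. CA9 fell in both lines, by 8.19 and by 1.69, with a difference of -6.50 ± 0.54 that ran from -8.24 to -6.07 when 1 library at a time was left out. A gene on the opposite strand covers 35.7% of its exon bases. NDRG1 fell by 4.22 on MUC1 silencing from 649, 414 and 509 to 26, 34.5 and 23.4 CPM. BNIP3, a mitophagy receptor, fell by 3.51, and VEGFA, the angiogenic growth factor, by 1.73 there, beside -0.63 and -0.07 on MYC silencing. P4HA2, a collagen prolyl hydroxylase, was opposite, at -1.94 and 0.88. PLOD2, a collagen lysyl hydroxylase, was the 1 member with a higher difference (0.28), of 2 with library size alone, and fell by 1.03 on MYC and 0.75 on MUC1 silencing. ANGPTL4 fell by 0.53 on MUC1 and by 1.14 on MYC silencing, with a difference that did not pass (adjusted p = 0.15 from edgeR's test).

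**Figure D4:**
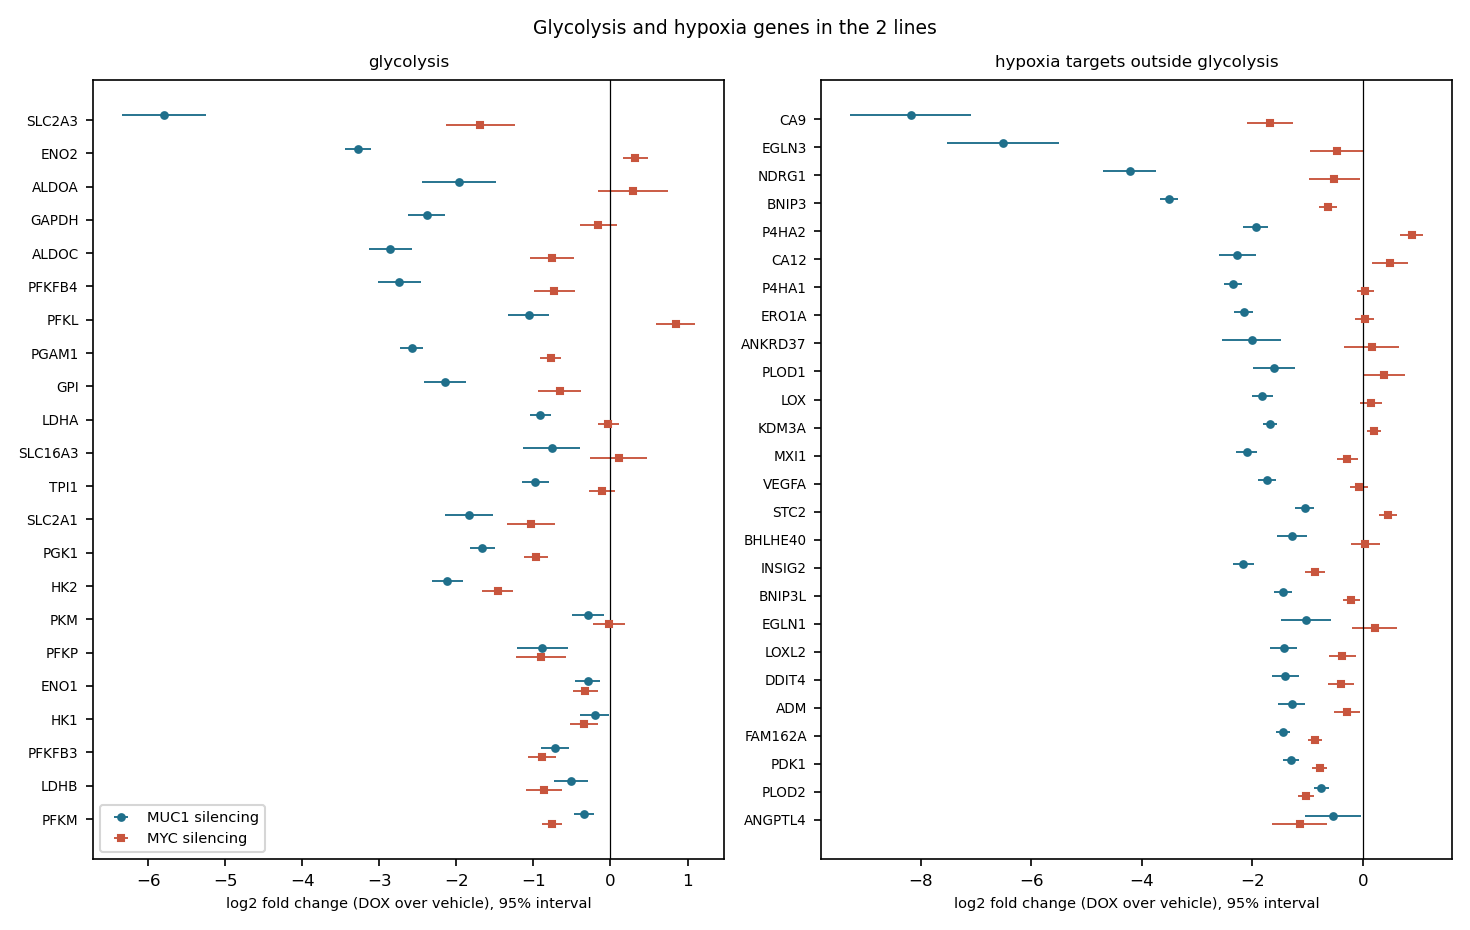
Log2 fold change with its 95% interval (DOX over vehicle, 3 libraries per group) of each glycolysis gene and each hypoxia target on MUC1 silencing (blue circles) and MYC silencing (red squares), ordered by the difference. The blue points lie left of 0 for all 22 and all 26 genes, while the red points of the hypoxia list spread around -0.24.

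Interferon-stimulated genes, which encode antiviral effectors and sensors switched on by transcription factors such as STAT2 and IRF9, went the other way in the MYC line. Of 30 tested, 29 rose and 0 fell on MYC silencing, with a median of 3.12, whereas 7 rose and 15 fell on MUC1 silencing, with a median of -0.51, or 10 and 13 with a median of -0.32 under library size alone. The difference was lower for 27 and higher for 0, or for 26 and 1 with library size alone. OAS2, an oligoadenylate synthetase, was at 0.371, 0.382 and 0.755 CPM with vehicle and 0.393, 0.154 and 0.276 with DOX in the MUC1 line, and at 0.108, 0.119 and 0.131 CPM with vehicle and 10.4, 11.1 and 7.54 with DOX in the MYC line. IFI6, which encodes a small interferon-induced membrane protein, was at 1.22, 0.429 and 0.775 CPM with vehicle and 0.357, 0.337 and 0.459 with DOX in the MUC1 line, and at 0.324, 0.229 and 0.164 CPM with vehicle and 7.48, 12.6 and 6.98 with DOX in the MYC line. Both genes began near or below 1 CPM in both lines, and the vehicle and DOX libraries of IFI6 overlapped in the MUC1 line but not in the MYC line. STAT2 was at 30.1, 29.7 and 30.1 CPM with vehicle and 20.8, 21.8 and 22.4 with DOX in the MUC1 line, and at 16.0, 15.1 and 15.0 CPM with vehicle and 47.9, 57.1 and 53.6 with DOX in the MYC line. The RNA sensor genes IFIH1 and RIGI rose in both lines, by 1.71 and 3.10 for IFIH1 and by 1.49 and 0.83 for RIGI, the latter without a difference that passed (adjusted p = 0.185 from edgeR's test). BST2 was at 0 in all 3 DOX libraries of the MUC1 line and at most 0.716 CPM elsewhere, and no fold change is given for it.

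Antigen presentation by MHC class I, an interferon-regulated process, followed the interferon list. Of 13 genes tested, 11 rose and 0 fell on MYC silencing (median 1.24), 1 rose and 4 fell on MUC1 silencing (median -0.34), or 2 and 3 with library size alone (median -0.15), and the difference was lower for 11. B2M, the light chain of every class I molecule, was at 243, 272 and 263 CPM with vehicle and 208, 208 and 192 with DOX in the MUC1 line, and at 178, 179 and 187 CPM with vehicle and 320.2, 345 and 321 with DOX in the MYC line. ERAP1, which trims peptides for loading, went from -0.38 on MUC1 silencing to 1.47 on MYC silencing, and PSMB9, an immunoproteasome subunit, from -0.03 to 2.10. NLRC5, which activates class I transcription, rose in both lines, by 1.71 and 1.24.

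Lysosomal genes, which encode hydrolases and membrane proteins of the degradative compartment, rose on MYC silencing in 23 of 25 cases, with 2 falls and a median of 1.28. On MUC1 silencing 7 rose and 14 fell, with a median of -0.19, or 10 and 9 with a median of 0.00621 under library size alone. The difference was lower for 22 and higher for 1. GAA, the acid alpha-glucosidase, was at 12.7, 10.45 and 9.81 CPM with vehicle and 3.45, 3.03 and 3.21 with DOX in the MUC1 line, and at 3.18, 2.59 and 3.28 CPM with vehicle and 12.4, 22.4 and 20.6 with DOX in the MYC line. In each line vehicle and DOX stood apart, and the difference was -4.38 ± 0.26 (adjusted p = 2.59e-10 from edgeR's test). NEU1, a sialidase, fell by 1.62 and rose by 1.56. CTSL, a cathepsin, fell by 0.94 and rose by 1.14, and CTSD, another cathepsin, rose in both lines by 0.59 and 2.08. NPC1, a cholesterol exporter, was the 1 member with a higher difference (0.39 ± 0.08).

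**Figure D5:**
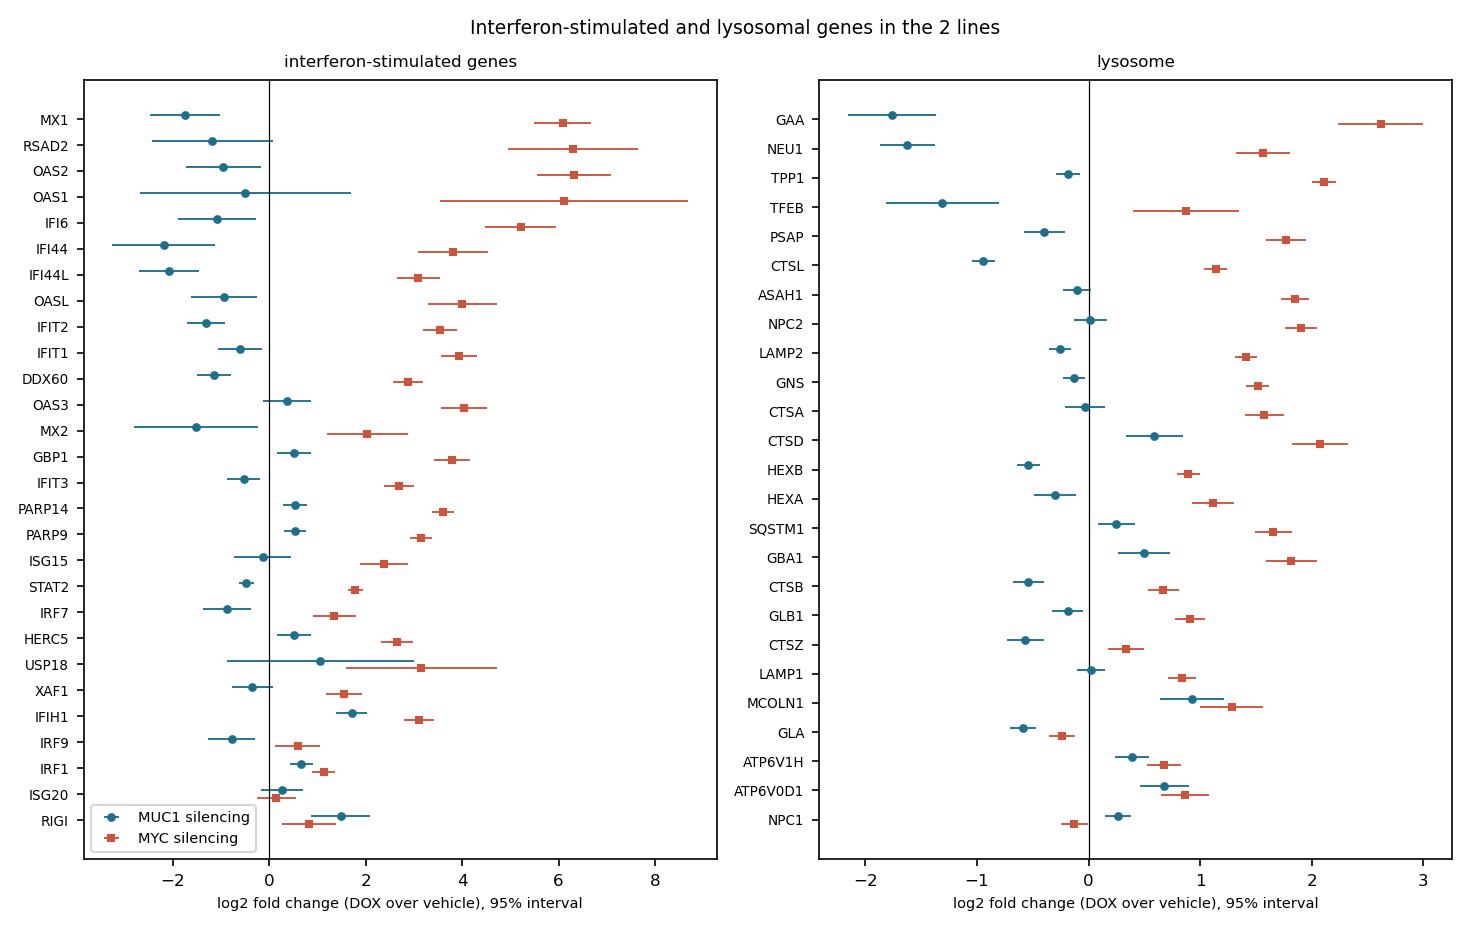
Log2 fold change with its 95% interval (DOX over vehicle, 3 libraries per group) of 28 of the 30 interferon-stimulated genes tested and of the lysosomal genes on MUC1 silencing (blue circles) and MYC silencing (red squares), ordered by the difference. BST2, without a fold change, is among the genes left out. The red points lie right of 0 for the 28 interferon genes shown, among which ISG20 (0.15, adjusted p = 0.544 from edgeR's test) did not pass, and for 23 of 25 lysosomal genes, and the blue points lie on both sides of 0.

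Ribosome biogenesis and DNA replication separated the lines in the other direction. Of 38 genes for ribosome assembly and the nucleolus, 36 fell and 0 rose on MYC silencing, with a median of -1.13, while 8 rose and 17 fell on MUC1 silencing, with a median of -0.05, or 18 and 9 with a median of 0.14 under library size alone. The difference was higher for 34 and lower for 0. NPM1, a nucleolar chaperone with 49 annotated pseudogenes, was at 1613, 1635 and 1617 CPM with vehicle and 764, 644 and 667 with DOX in the MYC line, and at 1440.5, 1599.5 and 1617 CPM with vehicle and 1146, 1144 and 1094 with DOX in the MUC1 line. LYAR, a nucleolar cell growth regulator, had the highest difference, 2.06 ± 0.10, with falls of -0.54 and -2.60. UTP20, part of the small subunit processome, rose by 0.55 in the one line and fell by 0.78 in the other, at 95.8, 103 and 103 and then 146, 144 and 152 CPM in the MUC1 line and at 189, 179 and 186 and then 108, 108 and 105 CPM in the MYC line. UBTF and RRN3, which act in RNA polymerase I initiation, moved by -0.03 and -0.17 on MUC1 silencing and by -0.21 and -0.11 on MYC silencing, of which only the -0.21 of UBTF passed the adjusted p.

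Of 30 DNA replication genes, 29 fell and 0 rose on MYC silencing (median -0.82), 12 rose and 3 fell on MUC1 silencing (median 0.18), or 22 and 2 with a median of 0.37 under library size alone, and the difference was higher for 27. MCM4, a subunit of the replicative helicase, was at 723, 674 and 669.7 CPM with vehicle and 338, 399 and 384 with DOX in the MYC line, and at 403, 419 and 407 CPM with vehicle and 419, 427 and 423 with DOX in the MUC1 line. MCM3, from the same helicase, fell by 0.69 on MYC silencing and rose by 0.37 on MUC1 silencing. ORC1, an origin recognition subunit, had the highest difference of the list, 1.80 ± 0.11. Mitosis genes were similar on the MYC side, with 25 of 26 falling and a median of -0.97. On the MUC1 side 5 rose and 12 fell, or 9 and 8 with library size alone, and the difference was higher for 25 of 26. MKI67, the proliferation marker Ki-67, was at 861, 864 and 885 CPM with vehicle and 407, 454 and 464 with DOX in the MYC line, and at 203.3, 214 and 201 CPM with vehicle and 219.6, 216 and 233 with DOX in the MUC1 line, so that every library of the MUC1 line lay below the silenced MYC line. Nucleotide synthesis genes fell in 19 of 21 cases on MYC silencing (median -1.01), and 5 rose and 11 fell on MUC1 silencing (median -0.18), or 8 and 7 with library size alone (median 0.02). PRPS1, which makes the ribose donor of nucleotides, rose by 0.24 and fell by 1.60, a difference of 1.83 ± 0.09 (adjusted p = 3.32e-12 from edgeR's test).

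Members of the MAX network, the partners and antagonists of MYC, had 2 of 11 higher and 5 lower in the difference, or 4 and 4 with library size alone. MXI1, a MAX partner that opposes MYC and is also induced by hypoxia, fell by 2.11 on MUC1 silencing from 104, 97.2 and 87.3 to 20.3, 24.8 and 21.8 CPM, beside -0.28 on MYC silencing.

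Promoter sequences were read for the lists whose textbook regulators bind a known motif, and 1 member per list is shown with the motif in capitals. The 250 bases before the RefSeq start (GRCh38.p14) were printed 5′ to 3′ on the gene's strand for the list member, outside the chromosome that carries MYC and with a mean normalized count of at least 100, that held the motif there and had the largest difference. Both strands were searched, so capitals can be the reverse complement of the letters given. The interferon list is represented by IFI6 (chr1:27672193-27672442, minus strand) with 3 matches to the interferon response element (GAAA repeated after any 2 bases), the hypoxia list by CA9 (chr9:35673678-35673927, plus strand) with 1 match to ACGTG at -18 from the start, the ribosome list by UTP20 (chr12:101279855-101280104, plus strand) with 1 match to the E-box CACGTG at -10, and the lysosome list by GAA (chr17:80101331-80101580, plus strand) with 2 matches to CACGTG.
IFI6: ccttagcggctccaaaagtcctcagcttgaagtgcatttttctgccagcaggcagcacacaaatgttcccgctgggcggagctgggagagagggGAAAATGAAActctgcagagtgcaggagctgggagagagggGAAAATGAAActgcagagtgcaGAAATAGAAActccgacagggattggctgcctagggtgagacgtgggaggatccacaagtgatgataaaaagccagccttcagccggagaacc
CA9: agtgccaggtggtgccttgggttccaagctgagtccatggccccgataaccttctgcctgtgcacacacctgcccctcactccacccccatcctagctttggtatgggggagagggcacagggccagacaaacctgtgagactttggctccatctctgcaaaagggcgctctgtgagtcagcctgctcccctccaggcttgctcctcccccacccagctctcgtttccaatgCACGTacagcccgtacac
UTP20: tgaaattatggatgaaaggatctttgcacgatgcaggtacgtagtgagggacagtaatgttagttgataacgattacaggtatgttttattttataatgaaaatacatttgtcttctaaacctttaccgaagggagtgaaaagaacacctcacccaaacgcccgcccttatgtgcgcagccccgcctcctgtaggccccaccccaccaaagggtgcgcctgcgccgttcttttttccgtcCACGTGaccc
GAA: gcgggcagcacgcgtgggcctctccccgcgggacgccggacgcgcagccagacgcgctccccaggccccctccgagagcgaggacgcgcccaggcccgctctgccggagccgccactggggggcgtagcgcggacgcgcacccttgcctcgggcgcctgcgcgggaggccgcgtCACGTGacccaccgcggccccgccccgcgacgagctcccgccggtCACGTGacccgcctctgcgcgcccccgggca

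Over windows from 250 bases before to 50 after the start, 12421 of the 21487 distinct symbols of tested genes matched a RefSeq promoter. Of these, 9.52% held CACGTG, 25.8% held ACGTG, which every CACGTG contains, and 2.84% held the interferon response element. CACGTG was found in 11 of 32 promoters of the ribosome biogenesis list (34.4%). ACGTG was found in 13 of 22 of the hypoxia list (59.1%), 8 of 21 of the glycolysis list (38.1%) and 15 of 32 of the ribosome biogenesis list (46.9%). The classes lay nearer to all genes. CACGTG was in 11 of 101 matched promoters of genes lowered in the MYC line alone (10.9%), and in 9.68% of 341 and 8.24% of 680 in the opposite classes. ACGTG was in 35 of 115 for genes lowered in the MUC1 line alone (30.4%). Many members of these classes had no matched promoter. Matched promoters covered 84.2% of the ribosome biogenesis list, 84.6% of the hypoxia list and 95.5% of the glycolysis list, but 76.7% of the interferon-stimulated and 64.0% of the lysosomal genes, and no share is given for the last 2 because too few of their members matched. A match describes letters in a window and does not show binding.

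Stress and secretory genes fell in the MUC1 line and were mixed in the MYC line. ATF4 targets, which supply amino acids under stress, fell in 17 of 21 cases on MUC1 silencing (median -1.10), while 10 rose and 6 fell on MYC silencing (median 0.16), and 8 of 21 fell in the one and rose in the other, as did 9.19% of all tested genes. TRIB3, a stress-induced pseudokinase, was at 131, 128 and 113 CPM with vehicle and 44.3, 47.4 and 41.8 with DOX in the MUC1 line, and at 34.5, 31.1 and 31.3 CPM with vehicle and 40.2, 45.4 and 45.7 with DOX in the MYC line. ASNS, asparagine synthetase, fell by 2.10 and changed by -0.11 ± 0.20. NUPR1 had the lowest difference, -4.01 ± 0.28. Endoplasmic reticulum chaperones fell in 15 of 18 cases on MUC1 silencing (median -0.81), and 8 rose and 7 fell on MYC silencing. HSPA5 (BiP), the main chaperone of the compartment, was at 2814, 2872 and 2323 CPM with vehicle and 728, 749.7 and 687 with DOX in the MUC1 line, with -0.16 ± 0.07 in the MYC line. Of 24 cholesterol synthesis genes, 2 rose and 21 fell on MUC1 silencing (median -0.61), and 6 rose and 15 fell on MYC silencing (median -0.31). FADS1, a fatty acid desaturase, was opposite at -1.90 and 1.08, and SCD, another desaturase, at -0.58 and 0.98.

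Mitochondrial genes differed by genome of origin. All 13 protein genes of mtDNA rose on MUC1 silencing (median 1.19), 10 rose and 1 fell on MYC silencing (median 0.29), and the difference was higher for 11. MT-ND1, a subunit of Complex I, was at 1131, 1073 and 998 CPM with vehicle and 2959.9, 2916 and 2931 with DOX in the MUC1 line, and at 1839, 2063 and 2279 CPM with vehicle and 1928, 1730.4 and 2311 with DOX in the MYC line, where the groups overlapped. Nuclear genes of Complex I had medians of -0.10 and -0.27, the first of which became 0.09 with library size alone, and those of Complexes II to V with cytochrome c had medians of -0.26 (-0.07 with library size alone) and -0.48. SDHD, a membrane anchor of Complex II, fell by 0.63 and by 0.53, with an interval of the difference from -0.35 to 0.14. CYCS, cytochrome c, fell by 0.85 and by 1.40, a difference of 0.55 ± 0.14 (edgeR, adjusted p = 0.00388), with 42 annotated pseudogenes. Of 18 citric acid cycle genes, 2 rose and 12 fell on MUC1 silencing, or 5 and 6 with library size alone, and 1 rose and 15 fell on MYC silencing.

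Collagens rose in more cases on MYC than on MUC1 silencing. Of 18 collagens, 12 rose and 4 fell on MYC silencing (median 1.60), 7 rose and 7 fell on MUC1 silencing (median -0.21, or -0.02 with library size alone), and the difference was lower for 12. COL15A1 (ENSG00000204291.11, chromosome 9 from 98943179 to 99070792), a basement membrane collagen, was at 235, 216 and 233 CPM with vehicle and 34.8, 35.2 and 36.0 with DOX in the MUC1 line, and at 28.7, 26 and 27.8 CPM with vehicle and 156, 175 and 171 with DOX in the MYC line. The order of the lines for COL15A1 was reversed by silencing, with changes of -2.69 and 2.61. COL6A1 and COL6A2, chains of type VI collagen, were opposite as well, at -1.5 and 2.06 and at -1.48 and 1.86. COL1A2, a chain of type I collagen, rose in both lines, by 0.76 and 1.65. COL7A1, the anchoring fibril collagen, rose by 1.82 and fell by 1.35 at levels of at most 0.803 CPM.

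NOTCH genes, which encode receptors and ligands of contact signalling, and genes of the epithelial-mesenchymal transition were mixed in direction. Of 12 NOTCH genes the difference was higher for 4 and lower for 6, and of 11 transition genes also for 4 and 6, and each list had 4 opposite members, beside 6.81% of all tested genes. NOTCH3 was at 46.9, 44.6 and 44.5 CPM with vehicle and 4.39, 5.24 and 3.26 with DOX in the MUC1 line, and at 2.98, 2.97 and 3.74 CPM with vehicle and 18.9, 27.9 and 22.8 with DOX in the MYC line. The ligand gene JAG1 fell by 0.56 and rose by 3.10, while NOTCH1 fell in both lines by 1.45 and 1.51. Of the transition transcription factors, ZEB1 was at 329, 310.3 and 342 CPM with vehicle and 123, 122 and 117 with DOX in the MUC1 line, a fall of 1.44, against a rise of 0.14 in the MYC line. TWIST1 and ZEB2 were opposite, at -1.23 and 0.80 and at -1.51 and 0.43. CDH2, which encodes the mesenchymal N-cadherin, rose on MUC1 silencing by 2.64 from 13.1, 11.7 and 11.4 to 74.9, 75.3 and 74.3 CPM, and CDH1, the epithelial E-cadherin, rose by 3.25 ± 1.12 there (edgeR, adjusted p = 0.01) at low counts, from a mean of 0.0309 to 0.313 CPM. CDH11, another cadherin, rose in both lines, by 1.48 and 4.44.

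Signalling lists were mixed. Of 23 NF-kB targets and cytokines, 8 had a higher and 6 a lower difference, beside 25.9% and 26.8% of all tested genes. CXCL5, a neutrophil chemokine, was at 392, 439 and 434 CPM with vehicle and 47.1, 33.2 and 32.1 with DOX in the MYC line, and changed by 0.07 ± 0.11 in the MUC1 line, while IL6 was opposite at -1.59 and 1.04 and PTGS2, cyclooxygenase 2, fell in both lines by 4.22 and 1.2. Of 21 TGF-beta and BMP targets, 11 rose in each line, and 6 fell on MUC1 and 5 on MYC silencing. Among all tested genes 24.1% rose and 27.3% fell on MUC1 silencing, and 29.3% rose and 28.7% fell on MYC silencing. BMP2, a ligand, was at 2.17, 2.86 and 2.38 CPM with vehicle and 42.7, 37.8 and 39.1 with DOX in the MUC1 line, and at 6.55, 7.61 and 6.82 CPM with vehicle and 2.90, 2.66 and 3.10 with DOX in the MYC line. DUSP6, a phosphatase induced by ERK of which 28.6% of exon bases are covered from the opposite strand, rose by 1.5 and fell by 0.59, and EPHA4, an ephrin receptor, fell by 1.25 and rose by 3.00. NRF2 targets, the antioxidant genes, rose in 9 of 17 cases and fell in 2 on MYC silencing, with a median of 0.65, while 4 rose and 5 fell on MUC1 silencing, or 8 and 4 with library size alone. FTL, the ferritin light chain with 16 annotated pseudogenes, was opposite at -0.94 and 1.38. The median differences of the ERK feedback, AP-1 and YAP lists were -0.00735, -0.04 and -0.15, and each changed sign with library size alone.

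The other metabolic, stress and adhesion lists were as follows. They stand beside shares of all tested genes of 24.1% risen and 27.3% fallen on MUC1 silencing, and 29.3% and 28.7% on MYC silencing. For the difference, these shares were 25.9% higher and 26.8% lower. Of 13 fatty acid synthesis genes, 1 rose and 10 fell on MUC1 silencing and 6 rose and 7 fell on MYC silencing, with a lower difference for 9 and a higher one for 2, or for 8 and 4 with library size alone. Enzymes of serine and folate metabolism fell in 9 of 11 cases and rose in 0 on MYC silencing (median -0.69), and 4 rose and 5 fell on MUC1 silencing (median -0.06, or 0.13 with library size alone), with a higher difference for 7 and a lower one for 4. Of 25 translation factors and tRNA synthetases, 0 rose and 18 fell on MUC1 silencing and 2 rose and 21 fell on MYC silencing, with a higher difference for 15 and a lower one for 7. With library size alone, 10 of them fell and 6 rose on MUC1 silencing. Of 13 heat shock chaperones, 1 rose and 6 fell on MUC1 silencing (median -0.15, or 0.04 with library size alone) and 3 rose and 9 fell on MYC silencing, with a higher difference for 9 and a lower one for 3. Of 20 p53 targets, 8 rose and 6 fell on MUC1 silencing and 9 rose and 4 fell on MYC silencing, and the difference was higher for 2 and lower for 9, or for 5 and 6 with library size alone. Of 20 integrins and laminins, 13 rose and 6 fell on MUC1 silencing and 10 rose and 7 fell on MYC silencing, with a higher difference for 9 and a lower one for 7. LAMB2, a laminin chain with the lowest difference of that list, fell by 1.08 and rose by 2.18.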

How the data were processed

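RNA was sequenced from 12 mammosphere libraries, and the deposited table of the whole series holds raw read counts per gene. Per the submitters' processing notes and the study's methods, the authors made these counts with CASAVA 1.8.2, STAR (2.7.3a in the notes, while the methods name another release) and featureCounts on GRCh38, with the strand setting and the handling of multi-mapping reads not given in the sources used here, and tested them with DESeq2. Empty cells (4952 per MUC1-line and 5761 per MYC-line library) were read as 0. The 12 columns of both lines were filtered with edgeR 4.0.16 (R 4.3.3), scaled by TMM and fitted in 1 quasi-likelihood model over 4 groups of 3, without a replicate block. Adjusted p-values are Benjamini-Hochberg over 21585 genes. The scripts were tested on simulated data.

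The text names MUC1, MYC, the 4 largest genes per class and direction with a mean normalized count of at least 100 and non-overlapping groups, the highest and lowest called member of each list, and 7 genes the study compared between lines, except for a few genes that are not reported here. Other list members were chosen after their values were seen. Members and lists were chosen with earlier results of these data known. Same-numbered libraries did not deviate together (mean r 0.02 and -0.09 for vehicle with DOX in the MUC1 and MYC lines). Alternatives were DESeq2 1.42.0, other scalings, filters and thresholds, a replicate block and leaving out each library. Counts limit precision by counting error and by the 3 libraries per group.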

Additional observations from a re-analysis of the deposited data

Results flagged for a closer look

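The change on silencing differed between the lines for 3474 genes by edgeR's quasi-likelihood test of the difference itself, and each gene named here passed that test. Values are the log2 change in the MUC1 line minus that in the MYC line. Higher differences were found for SEMA7A (9.81), MMP3 (6.91), TMC5 (6.75), MECOM (6.01), BMP2 (5.29), P2RX5 (5.17), PDE4A (5.08), GDF6 (4.82) and TSPAN1 (4.63). Further higher differences were those of ITGA2 (4.54), MUCL1 (4.42), CDH1 (4.11), FAM83B (4.04), POLR3G (3.95), NRARP (3.79), CXCL5 (3.56), KRT6A (3.39) and COL7A1 (3.17). Still higher than 0 were the differences of KLF2 (2.99), AJUBA (2.62), DUSP6 (2.09), LYAR (2.06), MTHFD1L (1.92), PRPS1 (1.83), ORC1 (1.80), NDC80 (1.80) and EEF1E1 (1.76). Further higher differences were those of MT-ND1 (1.51). Lower differences were found for MX1 (-7.83), PNCK (-7.81), CSMD3 (-7.12), MATN2 (-7.01), NDUFA4L2 (-6.79), CA9 (-6.50), NOTCH3 (-6.24), CADM1 (-6.08) and EGLN3 (-6.05). Further lower differences were those of COL15A1 (-5.30), COL3A1 (-4.99), CRYAB (-4.87), PPFIA4 (-4.85), SLC1A6 (-4.84), PLSCR4 (-4.50), MYL9 (-4.43), GAA (-4.38) and SPON2 (-4.37). Below 0 as well were the differences of EPHA4 (-4.25), SLC2A3 (-4.11), NUPR1 (-4.01), SMAD6 (-3.85), ENO2 (-3.60), COL6A1 (-3.56), COL6A2 (-3.33), MUC1 (-3.33) and LAMB2 (-3.26). Also lower were TP53INP1 (-3.02), PTGS2 (-3.02), FADS1 (-2.98), CDH11 (-2.96), PARP9 (-2.60), TM7SF2 (-2.55), WARS1 (-2.39), FTL (-2.32) and ALDOA (-2.26). The same sign was seen for DNAJB9 (-2.26), STAT2 (-2.26), GAPDH (-2.23), ERO1A (-2.20), PSAP (-2.16), CTSL (-2.08), LOX (-1.97), PFKL (-1.91) and ERAP1 (-1.85). Further lower differences were those of MXI1 (-1.83), KLF4 (-1.79), DUSP9 (-1.75), HSPA5 (-1.73), MGP (-1.58), SCD (-1.56), INSIG1 (-1.52) and IDH2 (-1.51). Leaving out 1 library at a time, the adjusted p no longer passed for MGP in 7 of 12 fits and for CDH1 in 1 of 12. CDH1 was counted at 0.413 CPM or less in every library. The differences nearest 0 in those fits were 1.41 for MT-ND1, -1.47 for INSIG1 and -1.40 for IDH2. These lie within the log2 threshold of 1.5, so their calls were lost there as well.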

How the results depend on the processing

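Requiring 10 counts in every library left 15111 genes tested, against 21585 in the main fit. It gave 1941 called differences, 763 calls on MUC1 silencing, 1106 on MYC silencing and 108 genes changed alike in both lines. The main fit gave 3474, 2011, 2448 and 369. The part of genes with low counts in these falls was not tested. An absolute fold change above 1.5 gave 8466, 6298 and 7948 calls for the difference, MUC1 and MYC, with 3087 opposite genes, 1729 in both lines, 1799 in the MUC1 line only and 2929 in the MYC line only. Chosen after seeing the data, a threshold on both changes left 215 opposite genes, and a mean normalized count of at least 100 left 1550 differences and 101 genes in both lines. Leaving out 1 library at a time gave 3447 to 3839 differences, 1352 to 1554 opposite genes and 357 to 396 genes in both lines. With a replicate block, 3409 differences and 1415 opposite genes were called, and DESeq2 called 3561 differences, of which 3439 were shared. With library size alone the differences of SDHD (0.0932) and FDFT1 (0.0687) and the list medians for AP-1 (0.17), ERK feedback (0.20) and YAP (0.0529) changed sign, as did ERK feedback with RLE factors (0.0075). The cause was not tested. Leave-one-out differences ran from -0.21 to 0.31 for KRT5, -0.18 to 0.0198 for SDHD and -0.0600 to 0.10 for ENO1. The call for CDH1 was lost without the third vehicle library of the MYC line (3.18, adjusted p = 0.159 from edgeR's test).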
